A study of Mus musculus with 12 samples.

Results

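Heat-shock chaperone transcripts were measured by bulk RNA sequencing of dendritic cells sorted from the liver, pancreas and duodenum of mice. The set described here comprised 10 genes of the cytosolic and mitochondrial chaperone machinery, selected by a list of symbols that was drawn up with earlier results of these data known, out of 55401 genes in each deposited table. These were Hspa8, Hspa1a, Hspa1b, Hsph1, Dnaja1, Dnajb1, Hsp90aa1, Hspb1, Hspd1 and Hspe1. Each symbol matched 1 row, and all 10 passed the filter on low counts that left 44624 genes tested. Every library came from B6 animals aged 6 to 8 weeks that carried no transgene or treatment named in the labels. The cells were gated as live, CD45-positive, lineage-negative, CD11c-positive, CD103-positive and CD11b-negative with high MHC class II, and are labelled migratory dendritic cells. There were 4 libraries each from liver, pancreas and duodenum, and each library pooled cells of 2 mice, so variation between single animals was not measured.

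Heat-shock proteins bind unfolded or nascent polypeptides and guide them to their folded state. HSP70 proteins cycle on and off their clients with ATP, J-domain proteins deliver the clients and start hydrolysis, HSP110 proteins exchange the nucleotide, and HSP90 takes over partly folded kinases and receptors. In the mitochondrial matrix, the HSP60 chamber and its HSP10 lid enclose imported proteins. Transcription of the inducible members is driven by heat shock factor 1, which binds inverted repeats of the pentamer nGAAn, and dendritic cells also use HSP70 and HSP90 proteins in antigen handling.

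The promoter stretches are shown because inducible heat-shock genes are classically grouped by a shared heat shock element. RefSeq start sites on GRCm38.p6 were matched by symbol for 8 of the 10 genes, all but Hspa8 and Hsp90aa1; the coordinates belong to that build, whereas the expression tables were made on GRCm39. Capitals mark matches to GAANNTTC or TTCNNGAA, searched on both strands from 250 bases before to 50 bases after each start. The 250 bases upstream of Hspa1a, chr17:34972157-34972406 on the minus strand, and of Hspa1b, chr17:34959239-34959488 on the minus strand, are given whole because these genes are near-identical copies.
Hspa1a: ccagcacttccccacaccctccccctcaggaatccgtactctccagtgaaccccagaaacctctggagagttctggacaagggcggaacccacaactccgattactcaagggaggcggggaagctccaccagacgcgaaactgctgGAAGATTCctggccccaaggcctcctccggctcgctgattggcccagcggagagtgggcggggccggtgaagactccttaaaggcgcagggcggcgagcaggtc
Hspa1b: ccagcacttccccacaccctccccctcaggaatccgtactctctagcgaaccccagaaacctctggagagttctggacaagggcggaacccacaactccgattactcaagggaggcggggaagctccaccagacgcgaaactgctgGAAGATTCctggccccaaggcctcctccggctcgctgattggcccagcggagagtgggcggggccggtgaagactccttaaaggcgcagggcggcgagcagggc
For 4 other genes, 30 bases that hold matches are given; Hsph1 has a further match before its start site that is not shown. They lie at chr5:149636287-149636316 on the minus strand for Hsph1, just after the start site, at chr4:40722333-40722362 on the plus strand for Dnaja1, at chr5:135887801-135887830 on the plus strand for Hspb1, and at chr1:55088053-55088082 on the plus strand for Hspe1.
Hsph1: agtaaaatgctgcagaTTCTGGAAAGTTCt
Dnaja1: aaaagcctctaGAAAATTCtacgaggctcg
Hspb1: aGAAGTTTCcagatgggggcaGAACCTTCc
Hspe1: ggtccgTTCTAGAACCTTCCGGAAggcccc
Hspd1 and Hspe1 are transcribed in opposite directions from the same stretch, and the Hspe1 sequence is also the match in the Hspd1 window, read from the other strand. The 2-pentamer element was found in the windows of 7 of the 8 genes, all but Dnajb1, and for 17% of all 27025 genes in the table, or 15.1% of all 32851 windows, since a gene can have several windows. The longer form, the same element extended by 1 more inverted pentamer at the same spacing, was found for Hsph1, Hspd1 and Hspe1 and for 0.662% of all genes (0.603% of windows). CCAAT was found for 6 of the 8 genes and 41.1% of all genes (37.4% of windows), and TATAAA for 0 of the 8 and 15.7% of all genes (13.6% of windows). The Hspa1a and Hspa1b upstream stretches were identical at 247 of 250 positions and differed at C44T, T47C and T249G, with the Hspa1a base first and positions counted from 1 at the 5′ end. Their longest open reading frames matched at 99.6% of aligned bases and each matched that of Hspa8 at 74.5% and 74.6%. After the frame, the 810 bases of Hspa1a and 643 bases of Hspa1b matched at 59.9% of aligned bases. Estimated counts could be divided between Hspa1a and Hspa1b with error, so those 2 genes are reported as uncertain, also as a sum.

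Library totals ranged from 220.9 M to 356.1 M estimated counts. Transcripts that define cDC1, the type 1 conventional dendritic cells with this surface phenotype, summed over 8 genes to 1507 to 1659 TPM in liver, 1258 to 1403 TPM in pancreas and 1188 to 1535 TPM in duodenum, and none was under 0.5 TPM in any tissue. TPM is the share of a library's transcripts scaled to a fixed total, which corrects for gene length and allows genes to be compared. Transcripts of other cells also differed between tissues. The 8 plasma cell genes summed to 149 to 1486 TPM in liver, 159 to 1757 TPM in pancreas and 9738 to 14720 TPM in duodenum, with Igha, Sdc1 and Prdm1 under 0.5 TPM in liver and Prdm1 in pancreas; liver 2, pancreas 3 and pancreas 4 held the 3 highest sums outside the duodenum. The 12 acinar genes summed to 3.87 to 6.07 TPM in liver, 1494 to 8252 TPM in pancreas and 4.01 to 20.7 TPM in duodenum, and 9 of them were under 0.5 TPM in liver and 5 in duodenum. The 5 monocyte genes summed to 149 to 169 TPM in liver, 135 to 179 TPM in pancreas and 33.9 to 67.2 TPM in duodenum, with Fcgr1 under 0.5 TPM in all 3 tissues and Vcan in liver. The 10 hepatocyte genes summed to 98.7 to 153 TPM in liver, 170 to 209 TPM in pancreas and 17.9 to 26.0 TPM in duodenum, with Fgb under 0.5 TPM in liver and 7 of the 10, Alb among them, under it in pancreas and in duodenum. The 5 erythroid genes summed to 323 TPM in duodenum 3 and to at most 15.1 TPM in the other libraries. Mitochondrially encoded genes took 1.12% to 1.24% of counts in liver, 1.09% to 1.19% in pancreas and 1.33% to 1.42% in duodenum. Their part in the results below was not tested, and in bulk samples fewer cells of a type and less RNA per cell cannot be told apart.

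Relative to duodenum, the log2 difference was below 0 for 9 of the 10 genes in liver and 8 in pancreas. In both comparisons the differences were largest for Hsp90aa1 (HSP90 alpha) and Hsph1 (HSP110). By edgeR's test, 7 of the 10 had an unadjusted p under 0.05 in each of them. Fewer passed after adjustment in pancreas than in liver, but the liver calls of Hspa1a and Dnajb1 were lost under 10 of 23 and 7 of 24 alternative settings. Against duodenum, 7 of the 10 genes were lower in liver at an adjusted p under 0.05 and 0 were higher, with a median log2 difference of -0.83. Over all genes tested, 7.32% were called in that comparison, 3.37% as higher and 3.95% as lower in liver, and the median log2 difference was 0.10. Against duodenum, 5 of the 10 were lower in pancreas and 0 higher, with a median of -0.60, where 7.7% of all genes were called, 3.76% as higher and 3.94% as lower in pancreas, and the median was 0.09. Called genes were more frequent among the 6620 genes with a mean of at least 10 TPM, which is the range of all 10 except Hspb1: 21.8% were called in liver against duodenum, 15% as lower, and 22.1% in pancreas against duodenum, 13.9% as lower. The medians of those abundant genes were -0.15 and -0.12. Between liver and pancreas, 0 of the 10 were called with edgeR, DESeq2 or limma, beside 1.11% of all genes with edgeR, 0.426% as higher and 0.681% as lower in liver, and 2 of the 10 had an unadjusted p under 0.05. The comparisons with duodenum share its 4 libraries and are therefore not independent of each other. Tests are edgeR's quasi-likelihood test on the estimated counts, adjusted over all genes by the Benjamini-Hochberg method, and log2 differences are given with their standard error.

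**Figure D1:**
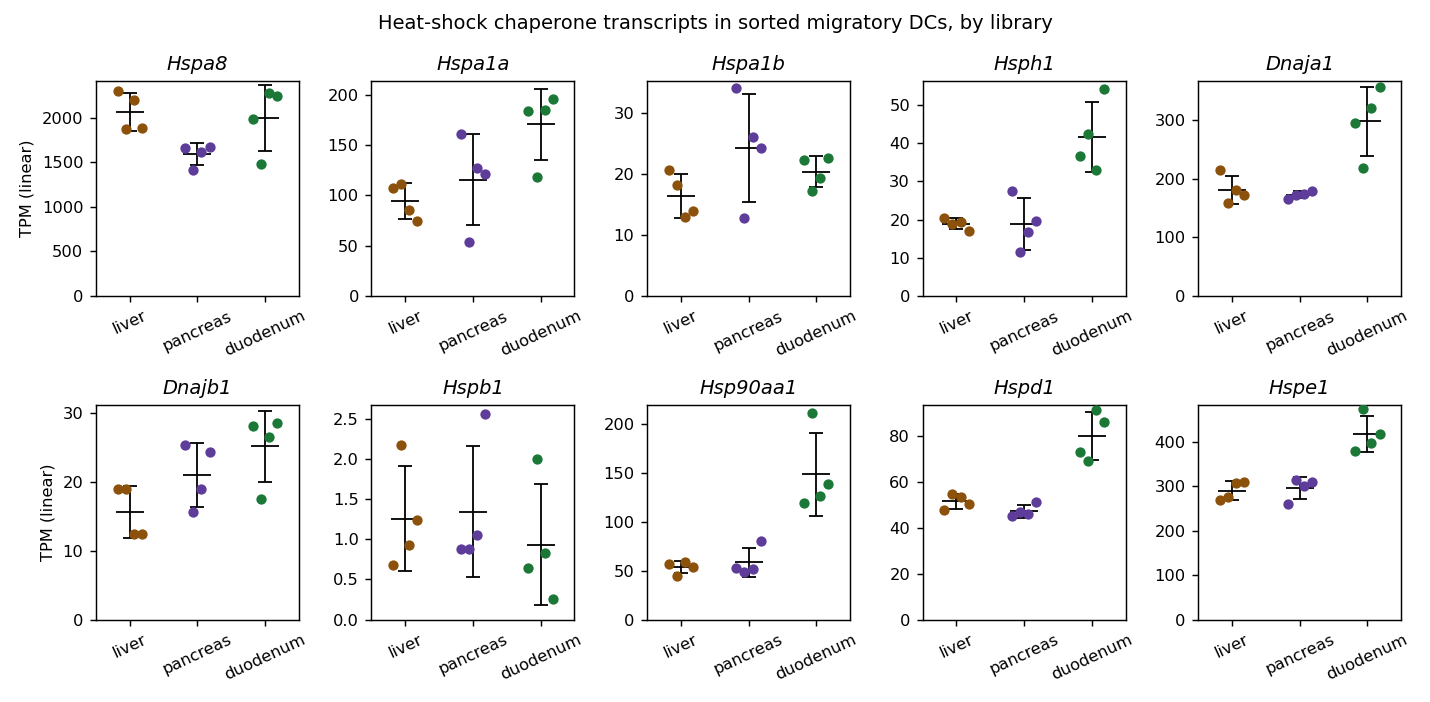
TPM of the 10 chaperone genes on linear axes that start at 0, with 1 point per library and bars for the mean and SD of 4 libraries in liver, pancreas and duodenum. For Hsph1, Dnaja1, Hsp90aa1, Hspd1 and Hspe1, every duodenum library lies above all 8 liver and pancreas libraries.

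Hspa8, the constitutive cytosolic HSP70, was the most abundant of the set in all tissues. It reached 2298, 1877, 2197 and 1888 TPM in the 4 liver libraries, 1667, 1417, 1622 and 1676 TPM in pancreas, and 1989, 1481, 2279 and 2246 TPM in duodenum. Liver and duodenum overlapped, and all pancreas libraries were below all liver libraries in TPM, though not in CPM, the estimated counts per library size after TMM scaling. The log2 difference was -0.12 ± 0.16 in liver against duodenum (adjusted p = 0.779), -0.41 ± 0.16 in pancreas against duodenum (adjusted p = 0.156) and 0.28 ± 0.16 in liver against pancreas (adjusted p = 0.69). The pancreas difference from duodenum passed under 3 of 24 alternatives. Without duodenum 2, the library with the lowest duodenum level, it was -0.61 ± 0.11 (adjusted p = 0.00201). Without duodenum 2 and pancreas 1 it was -0.59 ± 0.11 (adjusted p = 0.00661). With only genes of a mean of at least 1 CPM tested, it was -0.38 ± 0.12 (adjusted p = 0.0328). Of all genes, 10.3% were called without duodenum 2 and 26.5% with that filter, beside 7.7% in the main fit. Hspa8 made up a larger share of the summed TPM of the 10 genes in liver, 72.7% to 75.3%, and in pancreas, 67.3% to 68.4%, than in duodenum, 55.9% to 65.5%, with no overlap between the 3 tissues.

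Hspa1a, the main stress-inducible HSP70, was lower in liver than in duodenum. Liver libraries held 108, 111, 85.2 and 74.4 TPM, pancreas libraries 161, 53.4, 128 and 121 TPM, and duodenum libraries 184, 118, 185 and 196 TPM. All liver libraries lay below all duodenum libraries, whereas pancreas spanned both ranges. The log2 difference in liver against duodenum was -1.03 ± 0.27 (adjusted p = 0.0324). This call was lost without any 1 of liver 1, 3 or 4 (adjusted p = 0.054, 0.0679 and 0.084) or duodenum 1, 3 or 4 (adjusted p = 0.0785, 0.0803 and 0.0848), without liver 2, pancreas 3 and pancreas 4 together (adjusted p = 0.0787), with library totals in place of TMM (adjusted p = 0.0575), and with limma on log2(TPM + 1) (adjusted p = 0.0867). In pancreas against duodenum it was -0.65 ± 0.27 (adjusted p = 0.188), and -0.88 ± 0.25 without duodenum 2 (adjusted p = 0.0441).

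Hspa1b, the second inducible copy, was lower in level. Its tissue means did not follow the order of Hspa1a, but none of its differences passed with all libraries. The division of counts between the copies is also uncertain. Hspa1b averaged 16.4 ± 3.59 TPM in liver, 24.3 ± 8.83 TPM in pancreas and 20.3 ± 2.54 TPM in duodenum (SD, n = 4 each), with overlapping libraries. Its log2 difference was -0.49 ± 0.24 in liver against duodenum (adjusted p = 0.279), 0.17 ± 0.23 in pancreas against duodenum (adjusted p = 0.805) and -0.66 ± 0.24 in liver against pancreas (adjusted p = 0.333). Without pancreas 2, which had the lowest pancreas level, 12.7 TPM, the last of these was -0.86 ± 0.18 and passed (adjusted p = 0.0448). Of the 2 copies' summed TPM, Hspa1a made up 84.0% to 86.9% in liver, 80.8% to 83.3% in pancreas and 87.3% to 90.5% in duodenum. With the counts of both copies added before the fit, the log2 difference was -0.96 ± 0.26 in liver against duodenum (adjusted p = 0.0392), -0.55 ± 0.26 in pancreas against duodenum (adjusted p = 0.279) and -0.42 ± 0.26 in liver against pancreas (adjusted p = 0.761). The inducible copies together reached 0.0447 to 0.0690 of the Hspa8 level in liver, 0.0467 to 0.117 in pancreas and 0.0895 to 0.104 in duodenum.

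Hsph1, the HSP110 that releases ADP from HSP70, was lower in liver and pancreas. It had 20.5, 18.9, 19.3 and 17.0 TPM in liver, 27.5, 11.4, 16.8 and 19.7 TPM in pancreas, and 36.7, 42.4, 33.1 and 54.2 TPM in duodenum. No liver or pancreas library reached the lowest duodenum library, and the pancreas libraries surrounded those of liver. The log2 difference was -1.30 ± 0.22 in liver (adjusted p = 0.00168) and -1.24 ± 0.22 in pancreas (adjusted p = 0.00212), both against duodenum. Between liver and pancreas it was -0.06 ± 0.21 (adjusted p = 0.988).

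The J-domain genes differed in part. Dnaja1, a farnesylated partner of Hspa8 that carries clients to it, had 214, 158, 181 and 171 TPM in liver, 165, 172, 174 and 179.5 TPM in pancreas, and 295, 219, 320.3 and 357 TPM in duodenum. Liver and pancreas both stayed below the lowest duodenum library, duodenum 2, although liver 1 came within a few TPM of it. The log2 difference was -0.89 ± 0.17 in liver (adjusted p = 0.0045) and -0.87 ± 0.17 in pancreas (adjusted p = 0.00476) against duodenum, and -0.02 ± 0.17 between liver and pancreas (adjusted p = 0.997).

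Dnajb1, the inducible HSP40 that stimulates HSP70 in disaggregation, had 18.9, 19.0, 12.4 and 12.5 TPM in liver, 25.4, 15.6, 19.0 and 24.4 TPM in pancreas, and 28.1, 17.6, 26.5 and 28.6 TPM in duodenum. Duodenum 2 lay below liver 1 and liver 2, so the groups overlapped. The log2 difference in liver against duodenum was -0.86 ± 0.21 (adjusted p = 0.021). That call was lost without any 1 of liver 3 or 4 (adjusted p = 0.0581 and 0.0593) or duodenum 1, 3 or 4 (adjusted p = 0.0636, 0.0556 and 0.0629), and with limma on log2(TPM + 1) (adjusted p = 0.0676). Pancreas against duodenum was -0.35 ± 0.21 (adjusted p = 0.411), and liver against pancreas -0.51 ± 0.21 (adjusted p = 0.434).

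Hsp90aa1, the inducible cytosolic HSP90 alpha, differed most of the 10 genes in both comparisons with duodenum. It had 56.7, 45.0, 58.9 and 54.1 TPM in liver, 52.5, 48.4, 51.8 and 80.8 TPM in pancreas, and 119, 211, 126 and 138 TPM in duodenum. Every duodenum library exceeded the highest library outside it, pancreas 4, and duodenum 2, which was lowest for Hspa8, Hspa1a, Hspa1b, Dnaja1, Dnajb1 and Hspd1 among duodenum libraries, was highest here. The log2 difference was -1.61 ± 0.20 in liver (adjusted p = 0.000135), a 3.06-fold lower level, and -1.41 ± 0.20 in pancreas (adjusted p = 0.000354), a 2.65-fold lower level. Between liver and pancreas it was -0.21 ± 0.19 (adjusted p = 0.903).

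Hspb1, the small heat-shock protein HSP27 that holds unfolding proteins without ATP, was the least abundant of the set, with 52.8 to 566 estimated counts per library. It had 0.678, 2.17, 0.935 and 1.24 TPM in liver, 0.884, 0.879, 1.05 and 2.55 TPM in pancreas, and 0.640, 2.00, 0.824 and 0.253 TPM in duodenum. The 3 tissues overlapped throughout, and the libraries within each tissue differed more than the tissue means. The log2 difference was 0.31 ± 0.53 in liver against duodenum (adjusted p = 0.847), 0.50 ± 0.53 in pancreas against duodenum (adjusted p = 0.716) and -0.19 ± 0.53 in liver against pancreas (adjusted p = 0.985), so differences of this size were not detectable at this spread.

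Both mitochondrial genes were lower outside the duodenum. Hspd1, the HSP60 chamber subunit, had 47.6, 54.9, 53.6 and 50.3 TPM in liver, 45.0, 46.7, 45.9 and 51.5 TPM in pancreas, and 73.1, 69.2, 91.3 and 86.1 TPM in duodenum. Hspe1, the HSP10 lid, had 269, 277, 307 and 309 TPM in liver, 259, 315, 301 and 311 TPM in pancreas, and 380.3, 473, 399 and 418 TPM in duodenum. For both genes all duodenum libraries were above all others, while liver and pancreas overlapped.

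The log2 difference of Hspd1 was -0.80 ± 0.14 in liver (adjusted p = 0.00251) and -0.83 ± 0.14 in pancreas (adjusted p = 0.00159) against duodenum, and 0.04 ± 0.14 in liver against pancreas (adjusted p = 0.99). That of Hspe1 was -0.68 ± 0.13 in liver (adjusted p = 0.00438) and -0.55 ± 0.13 in pancreas (adjusted p = 0.0146) against duodenum, and -0.12 ± 0.13 in liver against pancreas (adjusted p = 0.922). The ratio of Hspd1 to Hspe1 TPM stayed between 0.146 and 0.229 in all 12 libraries. Processed copies of Hspe1 are listed as separate genes, and the highest of them, Hspe1-ps5, reached 3.12 TPM.

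**Figure D2:**
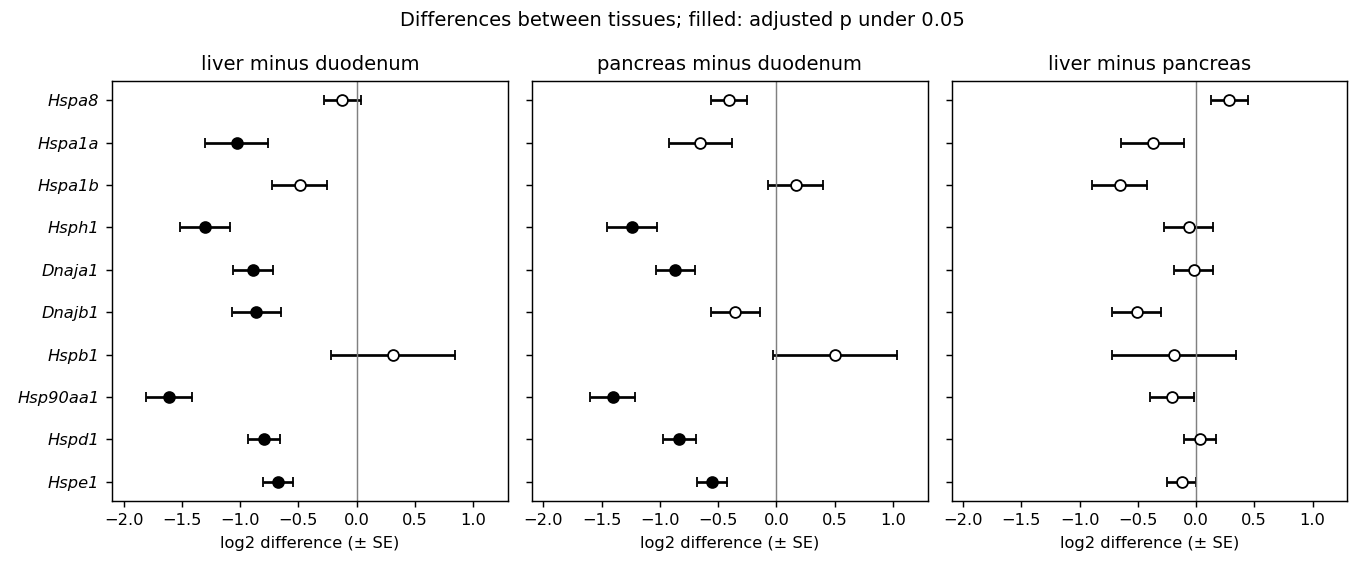
Log2 difference of each chaperone gene in liver minus duodenum, pancreas minus duodenum and liver minus pancreas, with bars of 1 standard error and filled points at an adjusted p under 0.05. In liver minus duodenum 7 points are filled, in pancreas minus duodenum 5, and in liver minus pancreas 0.

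Taking the set by library, 6 of the 10 genes had no overlap between liver and duodenum in CPM, all lower in liver, and 5 had none between pancreas and duodenum, all lower in pancreas. Over all genes, libraries did not overlap for 7.6% as higher and 5.9% as lower in liver, and for 7.12% as higher and 5.36% as lower in pancreas. Between liver and pancreas 0 of the 10 genes were free of overlap, beside 3.11% of all genes as higher and 3.47% as lower in liver. The mean of the 10 genes' log2 CPM, each centred on its mean over the 12 libraries, was -0.42 to -0.22 in liver, -0.49 to 0.11 in pancreas and 0.31 to 0.50 in duodenum. Pancreas was the most uneven. Pancreas 2 was lowest at -0.49 with 3 of the 10 genes above their pancreas mean, and pancreas 4 was highest at 0.11 with 10 of the 10 above it. Duodenum 2 had 3 of the 10 genes above their duodenum mean. Spread within tissues differed by gene: the SD of log2 CPM was 0.48 for Hspa1a, higher than 94.6% of genes with a mean of at least 10 TPM, against 0.19 for Hspd1 and 0.17 for Hspe1, higher than 21.7% and 13.2% of them.

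**Figure D3:**
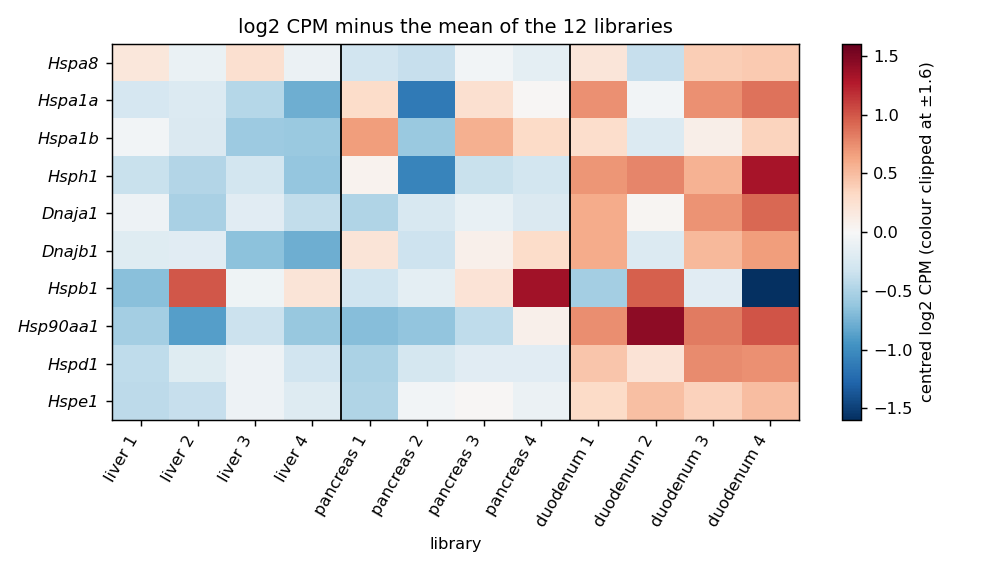
Log2 CPM of each chaperone gene minus its mean over the 12 libraries, with libraries in columns by tissue and colour clipped at 1.6 either way. Duodenum columns are mostly red and liver columns mostly blue, Hspb1 varies without regard to tissue, and pancreas 2 is the bluest pancreas column for Hspa1a and Hsph1.

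In order of mean TPM, the highest 6 genes were Hspa8, Hspe1, Dnaja1, Hspa1a, Hsp90aa1 and Hspd1 in all 3 tissues, and Hspb1 was last. Hsp90aa1 and Hspd1 overlapped in liver, at 45.0 to 58.9 and 47.6 to 54.9 TPM, and in pancreas, at 48.4 to 80.8 and 45.0 to 51.5 TPM. In duodenum, Hsp90aa1 at 119 to 211 TPM lay apart from Hspd1 at 69.2 to 91.3 TPM and overlapped Hspa1a at 118 to 196 TPM.

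Outside the set, the genes whose centred profile over the 12 libraries lay closest to the mean profile of the 10 genes, among 6260 candidates, were Hadh, Nup50, Rnf5, Vps18 and Supt3. Their mean absolute difference from that profile was 0.0884, 0.101, 0.101, 0.107 and 0.108 on the log2 scale. Within the set, the smallest values were 0.171 for both Hspd1 and Hspe1, and the largest was 0.741 for Hspb1.

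The rest of the chaperone network was read from 8 lists of chaperones, cochaperones and heat shock factors that hold none of the 10 genes. Most of their genes act in the cytosol, nucleus or mitochondria, but the J-domain list also holds Dnajc3, Dnajb12 and Dnajb14 of the endoplasmic reticulum, and the HSP70 list holds the microsomal Hspa13. Of 91 genes tested, 20 were lower and 1 higher in liver against duodenum, 21 were lower and 3 higher in pancreas against duodenum, and 0 were called in liver against pancreas with edgeR, where DESeq2 called 1, limma called 0 and 8 had an unadjusted p under 0.05. The shares called were 23.1% in liver against duodenum and 26.4% in pancreas against duodenum. They were 7.32% and 7.7% over all genes tested, and 21.8% and 22.1% over genes with a mean of at least 10 TPM. The lists also hold genes under 10 TPM, so the last 2 shares are not from a like set. By direction, 20 of the 21 and 21 of the 24 list calls were lower. Of the abundant genes, 15% were lower and 6.78% higher in liver, and 13.9% lower and 8.22% higher in pancreas. The liver count was 40 without duodenum 2 and 12 without duodenum 3. The HSP90 system held the most: 7 of 14 genes were lower in liver, with a list median of -0.46, and 7 were lower and 1 higher in pancreas, with a median of -0.56. The gene higher in pancreas was Fkbp5, an immunophilin that slows steroid receptor activation, at 1.26 ± 0.36 (adjusted p = 0.046). Its call was lost under 15 of 24 alternatives, among them with DESeq2 size factors in the edgeR fit (adjusted p = 0.0777) and without any 1 of liver 2, 3 or 4, pancreas 1, 2 or 4, or duodenum 1 to 4, with a highest adjusted p of 0.276.

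Hsp90ab1, the constitutive HSP90 beta, averaged 586 ± 77.9 TPM in liver, 607 ± 56.1 TPM in pancreas and 861 ± 56.0 TPM in duodenum. Its log2 difference from duodenum was -0.72 ± 0.13 in liver (adjusted p = 0.00395) and -0.57 ± 0.13 in pancreas (adjusted p = 0.0152), and the pancreas call was lost without pancreas 2 (adjusted p = 0.056). Fkbp4, an immunophilin cochaperone of HSP90, was lower by -0.88 ± 0.13 in liver (adjusted p = 0.000565) and -1.01 ± 0.13 in pancreas (adjusted p = 0.000152).

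For the list counts that follow, the shares called lower over all genes tested were 3.95% in liver and 3.94% in pancreas. Among genes with a mean of at least 10 TPM they were 15% and 13.9%, and list counts of 1 or 2 genes do not stand apart from these. Among HSP70 cochaperones, 2 of 9 were lower in both comparisons, with medians of -0.33 in liver and -0.27 in pancreas. These were Bag2, a nucleotide exchange factor that inhibits the CHIP ligase, at -1.44 ± 0.24 in liver (adjusted p = 0.00169) and -1.62 ± 0.24 in pancreas (adjusted p = 0.000578), and Hspbp1, another exchange factor, at -1.31 ± 0.17 (adjusted p = 0.000175) and -1.07 ± 0.16 (adjusted p = 0.00078). Of 8 other HSP70 and HSP110 genes, edgeR called 1 in each comparison, Hspa14, a ribosome-associated HSP70, while DESeq2 called 3 in each and limma 1 in liver and 2 in pancreas. Hspa14 averaged 26.1 ± 1.93 TPM in liver, 27.3 ± 2.33 TPM in pancreas and 51.5 ± 5.66 TPM in duodenum. Its log2 difference from duodenum was -1.14 ± 0.14 in liver (adjusted p = 0.000127) and -0.98 ± 0.14 in pancreas (adjusted p = 0.000368), and the medians of the 8 were -0.45 and -0.46. Of 16 other J-domain genes 2 were lower in each comparison, Dnajb6 and the luminal Dnajc3, with medians of -0.19 and -0.08. The liver call of Dnajb6, at -0.49 ± 0.14 (adjusted p = 0.0471), was lost under 11 of 24 alternatives, with a highest adjusted p of 0.147. The liver call of Dnajc3 was lost under 2 of 24. In pancreas, the Dnajb6 call was lost under 1 of 24 and the Dnajc3 call under 0. Of 9 other small heat-shock genes 0 were called with edgeR in either comparison, with medians of -0.15 in liver and 0.20 in pancreas. Most of these 9 averaged under 10 TPM in every tissue, so the counts of calls and the medians rest largely on low levels. In liver 0 of these 9 had an unadjusted p under 0.05 and 0 were called by DESeq2 or limma, and in pancreas 2 had such a p and DESeq2 and limma called 1 each.

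Of 14 other mitochondrial chaperones and proteases, 4 were lower and 1 was higher in each comparison, with medians of -0.31 in liver and -0.22 in pancreas. Hspa9, the mitochondrial HSP70 that pulls proteins through the inner membrane, averaged 37.0 ± 0.68 TPM in liver, 35.8 ± 4.87 TPM in pancreas and 51.1 ± 8.25 TPM in duodenum. Its calls, at -0.63 ± 0.16 in liver (adjusted p = 0.0309) and -0.58 ± 0.16 in pancreas (adjusted p = 0.0451), were lost under 7 and 10 of 24 alternatives. The liver call was lost without any 1 of liver 1, 2 or 4 or duodenum 1, 3 or 4, and the pancreas call without any 1 of pancreas 1 to 4 or duodenum 1, 3 or 4, with highest adjusted p of 0.119 and 0.17 over all alternatives. The gene that was higher was Spg7, a subunit of the inner-membrane m-AAA protease, at 0.98 ± 0.22 in liver (adjusted p = 0.0138) and 0.85 ± 0.22 in pancreas (adjusted p = 0.0291). Its liver call was lost without any 1 of liver 1, 2 or 3, and its pancreas call without any 1 of liver 1, 2 or 3, pancreas 1, 3 or 4, or duodenum 1, and with DESeq2 size factors in the edgeR fit (adjusted p = 0.0909), with highest adjusted p of 0.0974 and 0.283 over all alternatives. The TRiC chaperonin and prefoldin fold actin and tubulin. Of 14 such genes 4 were lower in liver and 5 in pancreas, with medians of -0.44 and -0.43, including the TRiC subunit Cct3 at -0.72 ± 0.13 (adjusted p = 0.0037) and -0.71 ± 0.13 (adjusted p = 0.00359).

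Hsf1, the heat shock factor itself, was not called. It averaged 13.1 ± 0.72 TPM in liver, 13.4 ± 1.33 TPM in pancreas and 13.0 ± 2.06 TPM in duodenum, with log2 differences from duodenum of -0.16 ± 0.15 (adjusted p = 0.681) and -0.03 ± 0.15 (adjusted p = 0.961). Of the 7 genes of the heat shock factor list, 0 were called in liver with edgeR, DESeq2 or limma, 0 had an unadjusted p under 0.05 there, and 1 was higher in pancreas. That gene, Hsf4, was chosen for mention after its values were seen and averaged 0.608 ± 0.356 TPM in pancreas and 0.104 ± 0.055 TPM in duodenum (log2 difference 2.49 ± 0.49, adjusted p = 0.00527).

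The other lists were chaperones of the endoplasmic reticulum and immediate-early genes. Beside their counts, 3.95% of all genes tested were lower in liver and 3.94% in pancreas against duodenum, and 0.681% in liver against pancreas. Among genes with a mean of at least 10 TPM, these shares were 15%, 13.9% and 2.19%. Of 14 chaperones of the endoplasmic reticulum, 10 were lower in liver and 13 in pancreas, with medians of -0.63 and -0.88, among them Hspa5, the luminal HSP70, at 404 ± 54.5 TPM in liver, 282 ± 31.2 TPM in pancreas and 604 ± 65.2 TPM in duodenum. In liver against pancreas the median of the 14 was 0.28, 0 were called with edgeR or DESeq2 and 3 with limma, and 5 had an unadjusted p under 0.05. Immediate-early genes are induced within minutes of stimulation and by tissue dissociation. Of 22 of them, 20 were lower in liver and 15 in pancreas relative to duodenum. In liver against pancreas 11 were lower with edgeR, DESeq2 called 13 and limma 9, and the list median was -1.07. Their summed level was 668 to 743 TPM in liver, 762 to 1121 TPM in pancreas and 3044 to 4498 TPM in duodenum, with none under 0.5 TPM in any tissue. Fos averaged 35.2 ± 2.17 TPM in liver, 75.5 ± 24.0 TPM in pancreas and 551 ± 106 TPM in duodenum. Their part in the chaperone differences was not tested.

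**Figure D4:**
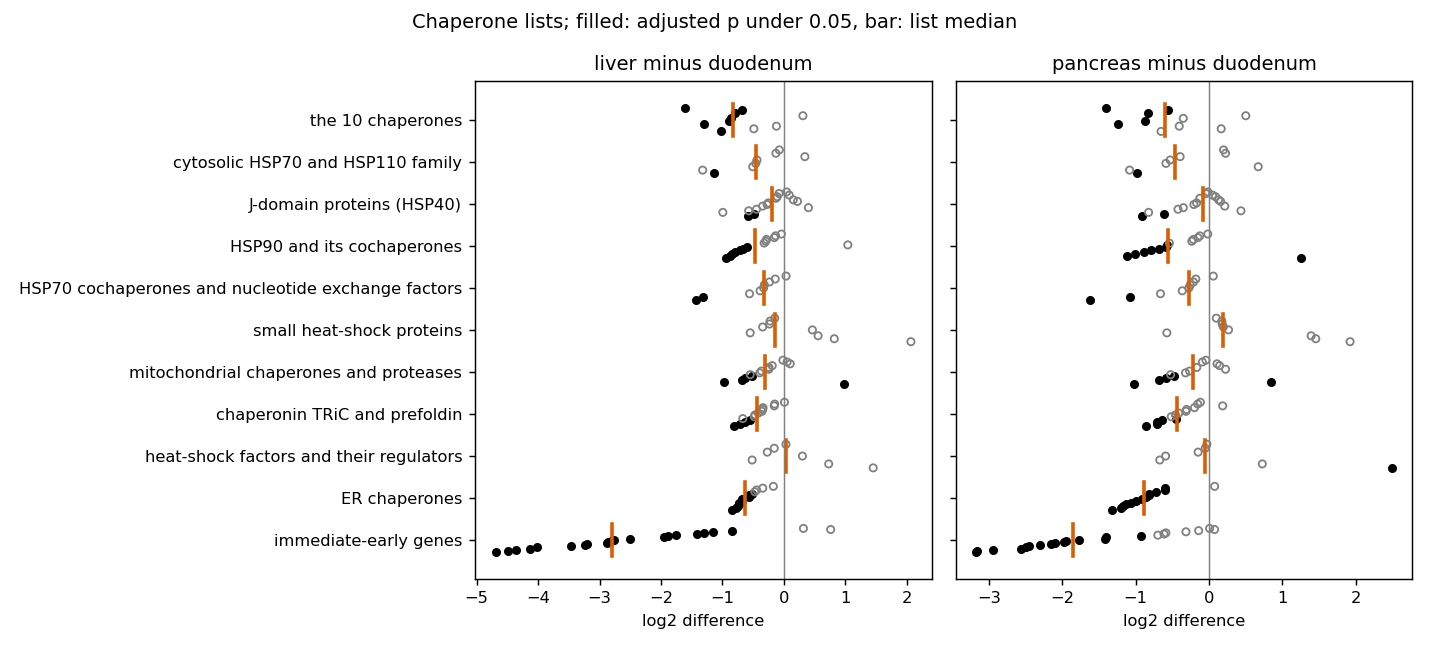
Log2 differences of every tested gene of the 10 chaperones, the 8 chaperone lists, the chaperones of the endoplasmic reticulum and the immediate-early genes, in liver minus duodenum and pancreas minus duodenum, with filled points at an adjusted p under 0.05 and a bar at each list's median. The axes of the 2 panels differ in range, and the immediate-early medians of -2.79 in liver and -1.86 in pancreas lie farthest from 0.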

How the data were processed

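PolyA RNA of 12 libraries, 4 per tissue, was analysed; the single-cell samples of the series were not used here. The authors deposited a TPM table and a table of estimated counts, made with kallisto on GRCm39 per the submitters' processing notes; for the annotation and the kallisto version, a statement was not given in the sources used here. Kallisto divides reads shared by near-identical copies by estimation. TPM was used for levels. Estimated counts were rounded, filtered with filterByExpr (minimum count 10; 44624 genes left), scaled by TMM and fitted over all 12 libraries with edgeR 4.0.16 (R 4.3.3), with no replicate block; calls are at an adjusted p under 0.05. Log2 CPM used a prior count of 2. DESeq2 1.42.0, limma 3.58.1 on log2(TPM + 1) and log2(TPM + 0.1), other scalings and filters, and leaving out libraries were the alternatives. No libraries were duplicates. The fit was tested on simulated data.

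The 10 genes and all lists were chosen with earlier results of these data known. Other named genes are at most the 3 called genes with the largest difference per list and comparison, with a mean of at least 10 TPM in the higher tissue, plus Hsf1, Hsp90ab1, Hspa9 and Hspa5 and the 5 genes closest in profile; Hsf4, Dnajb12, Dnajb14 and Hspa13 are named outside this rule. Sequences are from RefSeq (GRCm38.p6) and open reading frames from GENCODE transcripts, which replaced a planned protein comparison.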

Additional observations from a re-analysis of the deposited data

Results flagged for a closer look

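Each of the 10 genes was examined in each tissue for a library far from the other 3, 30 groups of 4 libraries in all, by the gap to the nearest library as a share of the group's range at Dixon's 95% critical value. Chance alone gives about 1 such group in 20, and 3 were found. Hspb1 reached 2.55 TPM in pancreas 4, where the other pancreas libraries began at 0.879 TPM, a gap of 0.898 of the range. Hsp90aa1 reached 80.8 TPM in pancreas 4, above pancreas libraries that began at 48.4 TPM, a gap of 0.873 of the range. Hspa1a was 118 TPM in duodenum 2, below duodenum libraries that reached 196 TPM, a gap of 0.845 of the range. Without duodenum 2, Hspa1a passed in pancreas against duodenum, as given with that gene.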

How the results depend on the processing

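Under 24 alternatives the number of the 10 genes called was 5 to 7 in liver against duodenum and 4 to 7 in pancreas against duodenum. In liver against pancreas it was 0 to 1 over the settings that leave out 1 library, with 1 without pancreas 2, and 0 otherwise. Hsph1, Dnaja1, Hspd1 and Hsp90aa1 were called in all 24 in both comparisons with duodenum, and Hspe1 in all but 1, pancreas against duodenum without liver 2, pancreas 3 and pancreas 4 (adjusted p = 0.0515). The labels do not say whether libraries with the same replicate number share animals, batch or day. Correlations of such libraries after removal of tissue means were -0.05 to 0.06, which cannot settle this. With the replicate block the counts were 7, 5 and 0. For the 91 list genes, liver against duodenum gave 32 with DESeq2 and 36 with a mean of at least 1 CPM. It gave 11 without liver 2, pancreas 3 and pancreas 4, 43 without duodenum 2 and pancreas 1, and 12 to 40 without 1 library. The share of all genes called also moved, to 11.5% with DESeq2 and 26.2% with a mean of at least 1 CPM. It was 4.38% without liver 2, pancreas 3 and pancreas 4, and 11% without duodenum 2 and pancreas 1. For the same list genes, pancreas against duodenum gave 33 with DESeq2, 28 with limma on log2(TPM + 1) and 17 to 32 without 1 library. The range over all alternatives was 12 to 35, with 12 without liver 2, pancreas 3 and pancreas 4, where 3.63% of all genes were called. Liver against pancreas gave 1 list gene with library totals and 1 with DESeq2. Sign changes were limited to differences that had not passed. With library totals these were Hspa8 (0.052) and Hsf1 (0.0042) in liver against duodenum, Hsf1 in pancreas against duodenum (0.063) and Dnaja1 in liver against pancreas (0.051). With limma on log2(TPM + 1) they were 0.061, 0.012, 0.044 and 0.063 for the same, and Hsph1 in liver against pancreas 0.064; with log2(TPM + 0.1), 0.061, 0.013, 0.048, 0.063 and 0.071. Without liver 2, pancreas 3 and pancreas 4, Hspb1 was -0.10 and -0.19 in liver and pancreas against duodenum and 0.089 in liver against pancreas, Hspa1b was -0.012 in pancreas against duodenum, and Dnaja1, Hspe1 and Hsp90aa1 were 0.14, 0.011 and 0.14 in liver against pancreas. Without duodenum 2 and pancreas 1, Hspa1b was -0.14 in pancreas against duodenum, and Hsph1 and Hspd1 were 0.11 and -0.027 in liver against pancreas. Without 1 library, Hspb1 ranged from -0.10 to 0.88, -0.038 to 1.07 and -0.58 to 0.32 in liver against duodenum, pancreas against duodenum and liver against pancreas; Hspa1b from -0.030 to 0.38 and Hsf1 from -0.16 to 0.089 in pancreas against duodenum; and Dnaja1 from -0.095 to 0.047, Hspd1 from -0.027 to 0.086 and Hsph1 from -0.24 to 0.11 in liver against pancreas. The cause was not tested. Over all genes, liver against duodenum split into 1502 higher and 1763 lower with TMM, 2642 and 1520 with library totals, which moved the median log2 difference to 0.25, 1078 and 1976 with DESeq2 size factors, and 1978 and 3155 with DESeq2. Liver against pancreas split into 190 and 304 with TMM, 428 and 392 with library totals, 395 and 315 with limma on log2(TPM + 1), and 469 and 702 with DESeq2. Of the 10 genes, Hspb1 had the fewest estimated counts, from 52.8 per library.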
